A study of Mus musculus with 3 samples.

Results

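Transcripts of 39 neurotrophic and tissue growth factor genes were read in 3 sorted mouse cell populations. The genes were listed by symbol, and each of the 39 had a row among the 23234 genes of the deposited tables. Cells came from wild-type C57BL/6J mice of 6 to 15 weeks that received 10 µg of lipopolysaccharide (LPS), an inflammatory component of bacterial cell walls, in 10 µL of buffered saline in the nostrils. The double-positive (DP) library was made from CD45+Ly6G+SiglecF+ cells of the nose taken 2 days after LPS. The nasal neutrophil library was made from CD45+Ly6G+SiglecF- cells of the nose at 1 day, and the blood neutrophil library from cells of that same gate in peripheral blood at 1 day. No group without LPS was analysed here. Each group is 1 library, and the number of mice behind it is not given in the sources used here, so the differences carry no replicate error and were not tested. The day and the SiglecF gate of DP differ from the others together with the group and cannot be told apart from it. The sample codes of DP and blood neutrophils are adjacent and that of nasal neutrophils lies apart from them; whether they were made in separate batches is not stated. The question put to these genes is which factors for neurons and tissue growth the DP cells transcribe, and how they compare with ordinary neutrophils.

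Growth factors act on cells that carry the matching receptor, and most of the listed families have receptors of their own. The neurotrophins (Bdnf, Ntf3) signal through Trk receptor kinases, and the GDNF family (Gdnf, Nrtn, Artn) through Ret with a co-receptor. Interleukin-6 family cytokines (Osm, Lif, Cntf) share the gp130 receptor chain, the EGF family is made as membrane precursors that proteases shed, and TGF-beta is secreted in a latent form that must be activated. In the nose, olfactory neurons are replaced throughout life from stem cells of the epithelium, and several of these factors are known to act on neurons, epithelium or vessels.

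Values are FPKM, fragments per kilobase of transcript scaled by the mapped fragments of the library, so levels can be compared between genes within a library. By the steps between the lowest values, 1 FPKM of a kilobase transcript stood for about 54.8 fragments in DP, 12.8 in the nasal and 54.3 in the blood neutrophils. A single fragment is therefore worth about 4 times more FPKM in the nasal neutrophil library. Of the 39 genes, 1 in DP, 8 in the nasal and 6 in the blood neutrophils were above 0 but rested on fewer than 10 fragments. The gate gene Siglec5, as the tables name the SiglecF gene, was at 168 FPKM in DP against 9.92 and 18.7 in the nasal and blood neutrophil libraries. Ptprc, the gene of the gate protein CD45, was at 445 FPKM in DP, 137 in the nasal and 719 in the blood neutrophils. Ly6g was not analysed here. Neutrophil transcripts were present in each library, with Csf3r, the receptor for the neutrophil growth factor G-CSF, at 581, 607 and 1180.4 FPKM in DP and in the nasal and blood neutrophils. S100a8 was listed at 0 in blood although it was at 29818 FPKM in nasal neutrophils, so a 0 in these tables can be a failed estimate, and a gene at 0 below is one listed at 0.

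Markers of other cells were present in the nasal libraries, as the plot of summed markers shows. The 19 epithelial and olfactory markers summed to 2722 FPKM in DP, 2172 in the nasal and 6.38 in the blood neutrophils. None of them was at 0 in either nasal library, 10 were at 0 in blood, and the highest values in a nasal library were those of Obp1a (1073 and 1329 FPKM in DP and nasal neutrophils) and Krt18 (289.7 and 132 FPKM). Macrophage markers (10 genes) summed to 458, 539.7 and 400.2 FPKM in DP and in the nasal and blood neutrophils, with Cd68 at 296 FPKM in DP and Csf1r at 131 in nasal neutrophils. In blood Cd68 and Csf1r were at 235 and 85.9 FPKM while 6 of the 10 were at 0, Marco among them. Marco was at 0 in DP as well. Monocyte and dendritic cell markers (9 genes) summed to 1193, 1921 and 509.6 FPKM, led in both nasal libraries by Cd74 and H2-Ab1. Stromal and endothelial markers (12 genes, 3 of them also receptors below) summed to 35.0, 48.3 and 38.1 FPKM, with Acta2 at 24.2 in nasal neutrophils and Dcn at 21.7 in DP. In blood Acta2 was at 32.1 and Dcn at 0.011 FPKM. Of the 12 genes, 2 were higher and 10 lower in DP than in nasal neutrophils, where 52.6% and 30.2% of all genes were. Lymphocyte markers (9 genes) summed to 19.2, 48.0 and 74.6 FPKM, with Cd79a at 23.2 and Cd79b at 11.4 in nasal neutrophils. Red cell and platelet markers (11 genes) summed to 27.0, 30.7 and 5535 FPKM, mostly globin genes, whose near-identical copies make their single values uncertain. Of 12 eosinophil, mast cell and basophil markers, which summed to 12.7, 21.1 and 7.44 FPKM with Ear2 at 11.5 in nasal neutrophils and Alox15 at 7.98 in DP, Epx, Prg3 and Mcpt4 were at 0 in all 3 libraries. The 14 neutrophil markers summed to 15651, 60793 and 80211 FPKM. The part of such cells in the factor levels was not tested.

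**Figure D1:**
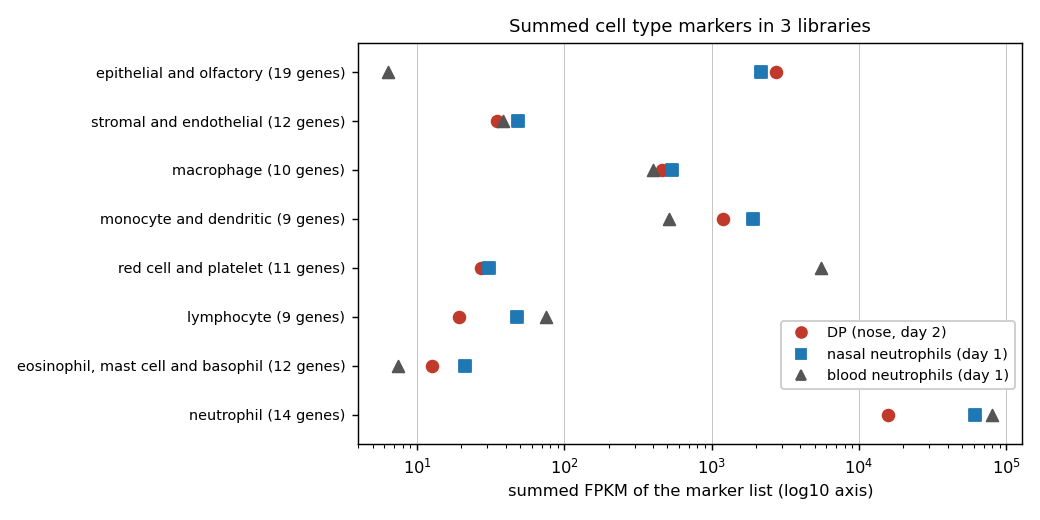
Summed FPKM (log10 axis) of 8 lists of cell type markers, 1 point per library, with the number of genes of each list that had a row. The epithelial and olfactory markers sum to 2722 FPKM in DP and 2172 in the nasal neutrophils, against 6.38 in blood neutrophils.

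Few of the listed factors were abundant. Of the 39 genes 21 reached 1 FPKM and 8 reached 10 in DP, where 19 and 6 did so in the nasal neutrophil library and 6 and 4 in the blood neutrophil library. Of all 23234 genes 11294 reached 1 FPKM in DP, 10460 in the nasal and 7706 in the blood neutrophils. The median level of the 39 was 1.21 FPKM in DP, 0.95 in the nasal and 0.023 in the blood neutrophils, where 18 genes were listed at 0. Of all genes 8892 were listed at 0 in blood neutrophils. A small number of genes made up most of the signal: Psap gave 65.9% of the summed FPKM of the 39 genes in DP, 38.2% in the nasal and 84.8% in the blood neutrophils. Osm gave 8.45% in DP, 43.0% in the nasal and 2.21% in the blood neutrophils. Without Psap, Osm and Grn, the other 36 genes summed to 115 FPKM in DP, 241 in the nasal and 34.3 in the blood neutrophils. In bulk samples such as these, fewer expressing cells and less RNA per cell cannot be told apart.

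**Figure D2:**
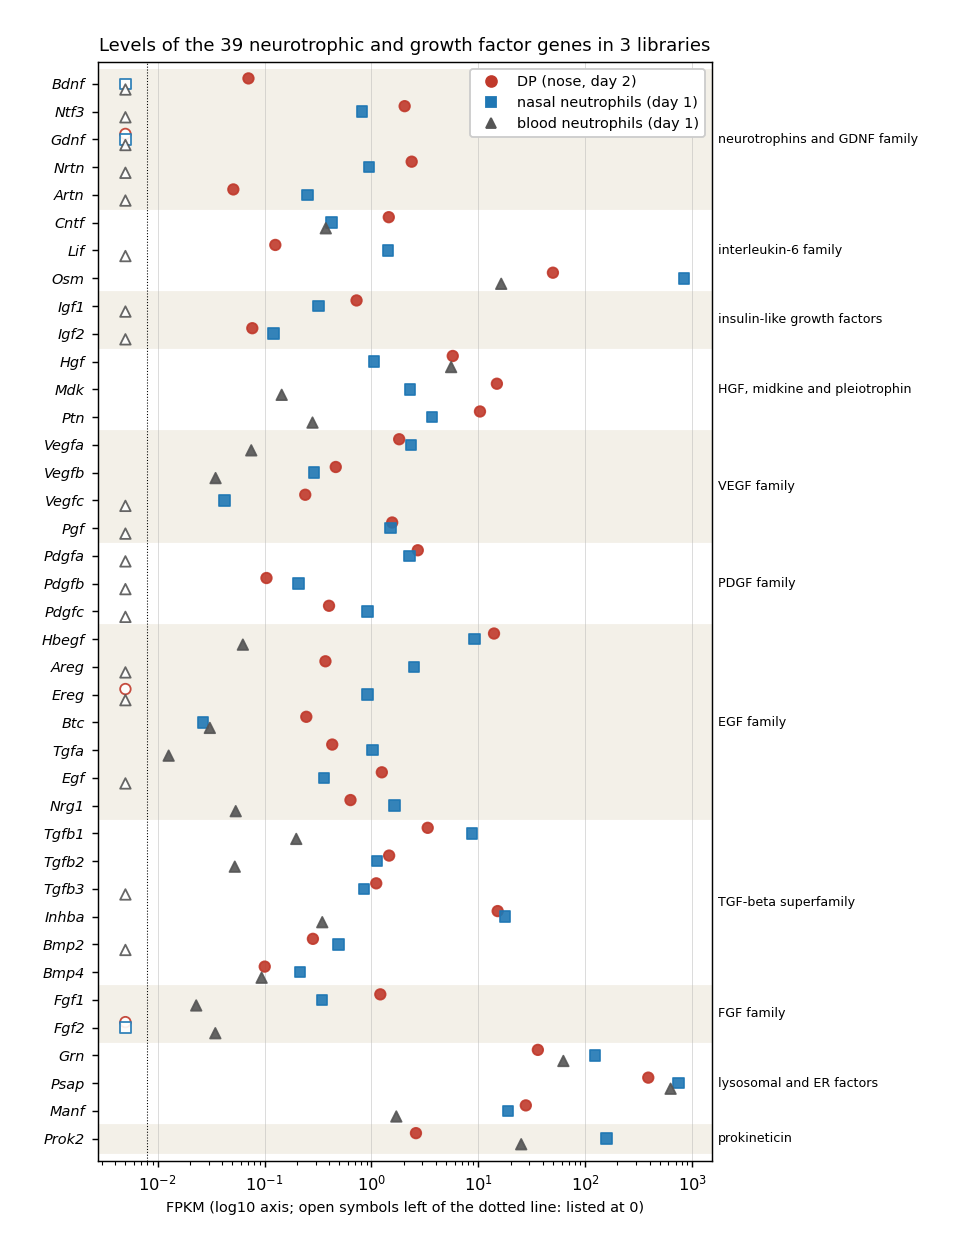
FPKM (log10 axis) of the 39 genes in the 3 libraries, 1 point per library, grouped by family, with genes listed at 0 drawn as open symbols left of the dotted line. Osm and Prok2 stand highest in nasal neutrophils (835 and 158 FPKM), Mdk and Ptn highest in DP (14.9 and 10.4 FPKM), and 18 genes are at 0 in blood neutrophils.

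Of the classical neurotrophins and the GDNF family, Ntf3 and Nrtn were present at a few FPKM in DP, and Bdnf, Gdnf and Artn were near or at the floor of the measurement. Bdnf, a neurotrophin for sensory and central neurons, was at 0.071 FPKM in DP, about 16.5 fragments, and at 0 in the other libraries. Gdnf, a survival factor for dopaminergic and enteric neurons, was at 0 in all 3. Ntf3, which encodes neurotrophin-3, was at 2.05 FPKM in DP and 0.81 in the nasal neutrophils and at 0 in blood neutrophils, or about 166 and 15.4 fragments in the nasal libraries. Nrtn, which encodes the GDNF relative neurturin, was at 2.38 and 0.95 FPKM in DP and nasal neutrophils, about 133 and 12.5 fragments, and at 0 in blood neutrophils. Artn, which encodes artemin, was at 0.051 and 0.25 FPKM in DP and nasal neutrophils, on about 6.1 and 7 fragments, and at 0 in blood neutrophils. The 5 genes together summed to 4.55 FPKM in DP, 2.02 in the nasal and 0 in the blood neutrophils, and Ntf3 and Nrtn carried nearly all of it.

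Among the interleukin-6 family, Osm was the one abundant transcript. Osm, which encodes oncostatin M, a cytokine made by activated neutrophils and macrophages, was at 49.8 FPKM in DP, 835 in the nasal and 16.4 in the blood neutrophils. It ranked 109th among 23234 genes in nasal neutrophils and 1835th in DP. Lif, which encodes leukemia inhibitory factor, a cytokine that also supports olfactory neuron progenitors, was at 0.13 FPKM in DP and 1.43 in the nasal neutrophils, on about 27.8 and 73.6 fragments, and at 0 in blood neutrophils. Both genes were lower in DP than in nasal neutrophils, by 16.8-fold for Osm and 11.3-fold for Lif in FPKM. Neutrophil markers were lower in DP as well, for 13 of 14 genes, where 30.2% of all genes were. Among them Csf3r and Elane were only 1.04-fold lower in FPKM. The median difference of the 14 was -1.94 on the log2(FPKM + 1) scale, against 0.57 for all tested genes. Of 9 monocyte and dendritic cell markers 7 were lower in DP and 2 higher, Itgax (55.4 against 14.3 FPKM) among the latter. The 7 compared had a median of -1.45. The part of cells with such markers in the Osm difference was not tested. Cntf, which encodes a factor that supports motor neurons, went the other way, at 1.45 FPKM in DP against 0.43 in nasal and 0.37 in blood neutrophils. Exons of Cntf overlap those of Zfp91 on the same strand in the GRCm38 annotation, and Zfp91 was at 2.50, 2.13 and 2.44 FPKM in the 3 libraries, so the Cntf values are uncertain.

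Insulin-like growth factors were low. Igf1 was at 0.73 FPKM in DP and 0.32 in the nasal neutrophils, Igf2 at 0.077 and 0.12, and both were at 0 in blood neutrophils.

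Hgf, Mdk and Ptn stood above their nasal neutrophil levels in DP. Mdk encodes midkine, a heparin-binding factor for growing neurites and epithelium, and was at 14.9 FPKM in DP, 2.30 in the nasal and 0.14 in the blood neutrophils. Its nasal and blood neutrophil values rest on about 31 and 8.3 fragments, and the DP value was 6.48-fold that of nasal neutrophils. Ptn, which encodes pleiotrophin, the relative of midkine, was at 10.4, 3.67 and 0.28 FPKM in DP and in the nasal and blood neutrophils, a ratio of 2.82 between the nasal libraries. Hgf, which encodes hepatocyte growth factor, was at 5.76 FPKM in DP, 1.06 in the nasal and 5.56 in the blood neutrophils. DP and blood neutrophils were thus within 1.04-fold of each other for Hgf, and both lay above nasal neutrophils, DP by 5.45-fold and blood neutrophils by 5.26-fold. With all genes centred on their median, Hgf in DP lay below blood neutrophils, by -0.91 on the log2 scale. Mdk and Ptn were lowest in blood, as were the epithelial and olfactory markers (6.38 FPKM in sum). Of these markers 11 were higher and 8 lower in DP than in nasal neutrophils, where 52.6% and 30.2% of all genes were. Past 4-fold on the log2(FPKM + 1) scale, Gap43 (2.21), Gng13 (2.17) and Bpifa1 (2.80) stood above nasal neutrophils and Foxj1 (-2.37) below. Of all tested genes 8.42% and 3.62% did. The median difference of the 16 markers compared was 0.34, against 0.57 for all tested genes. The part of such cells in the Mdk and Ptn values was not tested.

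The vascular factors were low in both nasal libraries and lower still or at 0 in blood neutrophils. Vegfa, the main inducer of vessel growth, was at 1.82 FPKM in DP, 2.35 in the nasal and 0.075 in the blood neutrophils. Vegfb was at 0.46, 0.29 and 0.035 FPKM in the same order, and Vegfc, a factor for lymphatic vessels, was at 0.24 FPKM in DP and at 0.042 in nasal neutrophils, the latter on about 1.3 fragments. Pgf, which encodes placental growth factor, was at 1.56 and 1.51 FPKM in DP and nasal neutrophils. Pgf and Vegfc were at 0 in blood neutrophils. Pdgfa, a mitogen for mesenchymal cells, was at 2.71 FPKM in DP and 2.27 in the nasal neutrophils, Pdgfb at 0.10 and 0.21, and Pdgfc at 0.40 and 0.92. The 3 PDGF genes were at 0 in blood neutrophils, and the VEGF family summed to 4.08, 4.19 and 0.11 FPKM in DP and in the nasal and blood neutrophils, and the PDGF family to 3.22 and 3.41 in DP and nasal neutrophils.

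The EGF family summed to 16.9 FPKM in DP, 15.7 in the nasal and 0.16 in the blood neutrophils, and in both nasal libraries most of that was Hbegf. Hbegf, which encodes heparin-binding EGF, a ligand for epithelial repair, was at 14.0 FPKM in DP, 9.23 in the nasal and 0.063 in the blood neutrophils, the last on about 9.8 fragments. Its less abundant relatives did not share 1 direction between the nasal libraries. Areg, which encodes amphiregulin, a tissue repair factor, was at 0.37 FPKM in DP and 2.50 in the nasal neutrophils, on about 24.7 and 38.8 fragments, and Ereg, which encodes epiregulin, was at 0 in DP and 0.92 in the nasal neutrophils. Tgfa was at 0.43 and 1.02 FPKM, and Nrg1, which encodes neuregulin, a factor for Schwann cells, at 0.64 and 1.65. In the opposite direction, Egf itself was at 1.25 FPKM in DP and 0.36 in the nasal neutrophils, and Btc, which encodes betacellulin, at 0.25 and 0.027, the latter on about 1.4 fragments. Areg, Ereg and Egf were at 0 in blood neutrophils, and Tgfa, Nrg1 and Btc were at 0.013, 0.054 and 0.031 FPKM there.

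In the TGF-beta superfamily the leading gene was Inhba rather than a TGF-beta. Inhba encodes the subunit of activin A, a cytokine released in inflammation, and was at 15.2 FPKM in DP, 17.8 in the nasal and 0.35 in the blood neutrophils. Its levels in the nasal libraries were within 1.18-fold, with the order turned by a length correction (0.13 on the log2 scale, in favour of DP), while both exceeded blood neutrophils, by 43.7-fold for DP and 51.4-fold for nasal neutrophils. Tgfb1, a suppressor of inflammation and inducer of matrix, was at 3.36, 8.76 and 0.20 FPKM in DP and in the nasal and blood neutrophils, 2.61-fold lower in DP than in nasal neutrophils. Tgfb2 was at 1.46, 1.13 and 0.053 FPKM, and Tgfb3 at 1.11 and 0.85 FPKM in the nasal libraries and at 0 in blood neutrophils. The bone morphogenetic proteins were low, with Bmp2 at 0.28 and 0.49 FPKM in DP and nasal neutrophils and at 0 in blood neutrophils, and Bmp4 at 0.10, 0.21 and 0.094. Fgf1 was at 1.21, 0.35 and 0.023 FPKM in DP and in the nasal and blood neutrophils, and Fgf2 was at 0 in both nasal libraries and at 0.035 in blood neutrophils. Fgf2 exons overlap Nudt6 on the opposite strand, which was at 4.39, 0.90 and 0.098 FPKM, and whether counting used strand is not stated.

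Factors that also work inside the lysosome or the endoplasmic reticulum gave the largest family sum, 452 FPKM in DP, 884 in the nasal and 692 in the blood neutrophils. Psap encodes prosaposin, the precursor of lysosomal lipid-degrading cofactors that is also secreted and protects neurons, and was at 388 FPKM in DP, 742 in the nasal and 628 in the blood neutrophils. Grn, which encodes progranulin, a lysosomal and secreted factor whose loss causes neurodegeneration, was at 36.0, 123 and 62.4 FPKM in the same order. DP was the lowest of the 3 libraries for both genes, by 1.91-fold for Psap and 3.41-fold for Grn against nasal neutrophils and by 1.62-fold and 1.73-fold against blood neutrophils. Manf, which encodes a factor of the endoplasmic reticulum that is released under stress, was at 27.8, 18.9 and 1.71 FPKM, with DP 16.3-fold above blood neutrophils. Its DP level lay above nasal neutrophils as deposited, by 0.53 on the log2(FPKM + 1) scale, but at -0.04 with all genes centred on their median and at -0.11 with upper quartile scaling. Manf exons overlap those of Rbm15b, on the same strand, in the GRCm38 annotation, and Rbm15b was at 2.49, 2.00 and 0.012 FPKM.

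Of the 35 genes above 0 in both nasal libraries, Prok2 had the largest ratio between them. It encodes prokineticin-2, a secreted peptide known from neutrophils and from the migration of new neurons to the olfactory bulb. Its level was 2.61 FPKM in DP, on about 207 fragments, while the nasal and blood neutrophil libraries held 158 and 25.2. DP was 60.4-fold below nasal neutrophils and 9.65-fold below blood neutrophils, so the DP library was the lowest of the 3, where for Osm it lay between the others. The part of the lower neutrophil markers in DP was not tested for Prok2 either. It ranked 475th among all genes in nasal neutrophils, 2064th in blood neutrophils and 8698th in DP.

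Osm, Prok2 and Mdk were the listed factors that stood 4-fold apart between DP and nasal neutrophils on the log2(FPKM + 1) scale. Differences are in log2(FPKM + 1), a scale on which ratios of low genes come out too small, and genes averaging at least 1 FPKM over the 3 libraries were compared. Of the 39 genes 15 did: Nrtn, Osm, Hgf, Mdk, Ptn, Vegfa, Pgf, Pdgfa, Hbegf, Tgfb1, Inhba, Grn, Psap, Manf and Prok2. The other 24 fell under that mean, and a gene that met it through 1 high library was bound to differ, so the counts describe the 15 alone. On that scale 1 of the 15, Mdk (a difference of 2.27), was at least 4-fold higher in DP, where 8.42% of 10719 tested genes were. That count is near the background. At least 4-fold lower in DP were 2 of the 15, Osm (-4.04) and Prok2 (-5.46), where 3.62% of tested genes were. In FPKM, without the added 1, Hgf was past 4-fold as well, at 5.45-fold higher in DP. The median difference of the 15 was 0.03 and that of all tested genes 0.57, and 11 of the 15 lay below the median of all genes. Scaling moves this picture: 903 of all tested genes were at least 4-fold higher and 388 lower in DP, but 360 and 773 after centring on the median. Relative to that median, Pgf, Pdgfa, Hbegf and Manf, which were above 0, came to -0.54, -0.39, -0.02 and -0.04, Mdk came to 1.69, under 4-fold, and Grn joined Osm and Prok2 past 4-fold lower at -2.32. Corrected for transcript length Mdk was at 1.75, where tested genes with a longest transcript under 1500 nt had a median of 1.07 and those of 3000 nt or more one of 0.39. Over all 39 genes, with no minimum, FPKM was higher in DP for 19 and in nasal neutrophils for 18, where 52.6% and 30.2% of all 23234 genes were.

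**Figure D3:**
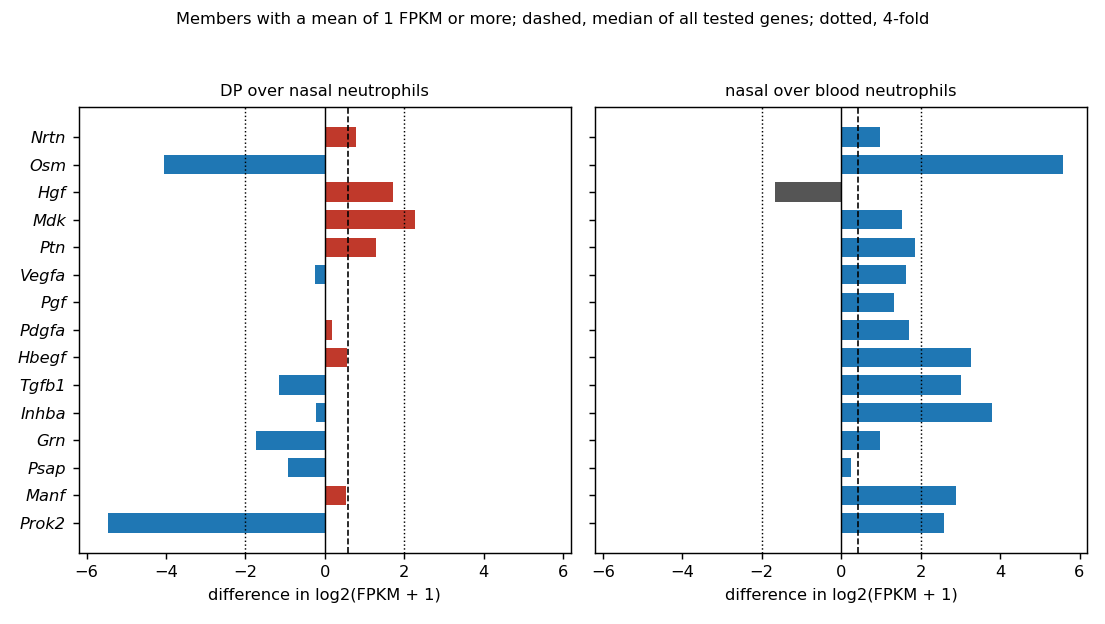
Differences in log2(FPKM + 1) of the 15 factors with a mean of 1 FPKM or more, DP over nasal neutrophils at left and nasal over blood neutrophils at right, coloured by the library that is higher; the dashed line is the median of all tested genes and the dotted lines mark 4-fold. At left Osm and Prok2 reach -4.04 and -5.46 and Mdk 2.27, and at right only Hgf lies below 0.

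The promoters of the factors that stood out in nasal neutrophils are shown because Osm, Prok2, Lif and Areg were each at 1 FPKM or more there and at least 4-fold above DP in FPKM, as were 6.69% of the 10417 genes at 1 FPKM or more there and above 0 in DP. RefSeq promoter windows were at hand for 3 of these 4, and the 250 bases before the start site are given 5′ to 3′ on the gene's strand, from build GRCm38.p6. They lie at chr6:99726393-99726642 (minus strand) for Prok2, chr11:4257318-4257567 (plus strand) for Lif and chr5:91139349-91139598 (plus strand) for Areg. Capitals mark matches, on either strand, to the letters of AP-1, the cyclic AMP response element (CRE), part of an NF-kappaB site or the TATA box, in that order TGANTCA, TGACGTCA, GGGNNTTTC and TATAAA.
Prok2: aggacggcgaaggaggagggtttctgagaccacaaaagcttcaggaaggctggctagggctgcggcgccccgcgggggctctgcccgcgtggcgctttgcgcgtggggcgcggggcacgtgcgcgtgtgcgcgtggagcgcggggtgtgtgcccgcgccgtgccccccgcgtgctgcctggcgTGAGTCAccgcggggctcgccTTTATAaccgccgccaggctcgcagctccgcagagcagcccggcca
Lif: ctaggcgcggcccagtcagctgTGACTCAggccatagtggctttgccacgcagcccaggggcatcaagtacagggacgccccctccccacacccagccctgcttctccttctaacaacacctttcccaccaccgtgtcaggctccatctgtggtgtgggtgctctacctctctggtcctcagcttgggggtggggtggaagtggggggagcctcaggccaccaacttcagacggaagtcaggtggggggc
Areg: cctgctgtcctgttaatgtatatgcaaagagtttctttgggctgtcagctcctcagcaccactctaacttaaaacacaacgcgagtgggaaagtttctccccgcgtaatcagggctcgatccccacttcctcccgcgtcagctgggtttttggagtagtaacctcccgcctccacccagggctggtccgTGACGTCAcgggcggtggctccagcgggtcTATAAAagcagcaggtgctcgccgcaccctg
In Prok2 an AP-1 match lies 61 to 67 bases and a TATA box match 41 to 46 bases before the start, the latter on the opposite strand. In Lif an AP-1 match lies 222 to 228 bases before the start. In Areg a CRE match lies 54 to 61 bases and a TATA box match 26 to 31 bases before it. No 2 of these matches overlap. Among all 32851 windows of this length, 6.75% hold the AP-1 letters, 1.55% the CRE letters, 3.72% the NF-kappaB letters and 12.4% the TATA box letters. Among the 46 windows of listed factors, 6 hold the AP-1 letters, 1 the CRE letters, 0 the NF-kappaB letters and 5 the TATA box letters. The matches are descriptions of the reference sequence, and factor binding was not measured.

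Between nasal and blood neutrophils, which share the gate and the day, 6 factors were higher in the nose by 4-fold or more on the log2(FPKM + 1) scale. At least 4-fold higher in nasal neutrophils were 6 of the 15, where 13.1% of tested genes were: Osm (5.59), Inhba (3.81), Hbegf (3.27), Tgfb1 (3.03), Manf (2.88) and Prok2 (2.60). None was at least 4-fold lower on that scale, where 3.23% of tested genes were, and Hgf (-1.67) was the 1 gene of the 15 lower in nasal neutrophils. In FPKM, without the added 1, Hgf was 5.26-fold lower there. Vegfa, Mdk and Ptn were 31.2-fold, 15.9-fold and 13.1-fold higher there in FPKM. Psap (0.24) lay at -0.17 relative to the median of all genes. The median of the 15 was 1.71 and that of all tested genes 0.41. Of all 39 genes, 34 were higher and 3 lower in nasal than in blood neutrophils, 16 of the former with a 0 in blood, where 55.2% and 24.2% of all genes were higher and lower. Epithelial and olfactory markers moved with this comparison, as 15 of the 16 tested reached 4-fold in favour of nasal neutrophils. The 6 macrophage markers compared did not share 1 direction. C1qa, C1qb and C1qc were at 30.8, 80.9 and 53.3 FPKM in nasal neutrophils and at 0 in blood. Csf1r was higher in nasal neutrophils by 0.60 on the log2(FPKM + 1) scale, while Emr1 (-0.39) and Cd68 (-0.38) were lower there. The part of cells with such markers in the factor differences was not tested.

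Against blood neutrophils, DP was at least 4-fold higher on the log2(FPKM + 1) scale for 5 of the 15, where 24.0% of tested genes were. These were Hbegf (3.82), Mdk (3.80), Inhba (3.59), Manf (3.41) and Ptn (3.15). DP was at least 4-fold lower for 1, Prok2 (-2.86), where 3.57% of tested genes were. The median of the 15 was 1.76 and that of all tested genes 0.95, and 13 of the 16 tested epithelial and olfactory markers were at least 4-fold higher in DP. The 3 comparisons share libraries, so they are not separate evidence. On that scale Tgfb1 (1.86) and Osm (1.55) were higher in DP than in blood neutrophils without reaching 4-fold, while Grn (-0.78) and Psap (-0.69) were lower. In FPKM, without the added 1, Tgfb1 and Vegfa were 17.0-fold and 24.2-fold higher in DP. Of all 39 genes, 33 were higher and 4 lower in DP than in blood neutrophils, where 62.4% and 18.7% of all genes were.

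Receptors for these factors were mostly low, and Tgfbr1 was the highest. Of 48 receptor genes, 14 reached 1 FPKM in DP, 18 in the nasal and 7 in the blood neutrophils. Among all 23234 genes 11294, 10460 and 7706 did, in the same order. Tgfbr1, the type I receptor for TGF-beta, was at 244.5 FPKM in DP, 31.1 in the nasal and 20.7 in the blood neutrophils, 7.87-fold and 11.8-fold higher in DP. Its partner Tgfbr2 was at 10.9, 19.1 and 12.8 FPKM and did not share that pattern. Acvr1b, a type I receptor for activin, the product of Inhba, was at 1.14, 8.46 and 3.41 FPKM, 7.41-fold lower in DP than in nasal neutrophils. Lifr, the chain that binds LIF and pairs with gp130, was highest in DP at 12.0 FPKM, against 3.60 in nasal and 2.43 in blood neutrophils. The oncostatin M receptor gene Osmr was at 0.73, 1.09 and 0.004 FPKM, and Il6st, which encodes gp130, at 2.39, 5.32 and 0.055. The prokineticin receptor genes Prokr1 and Prokr2 did not exceed 0.078 FPKM in any library. Of the 13 receptor genes with a mean of 1 FPKM or more, Tgfbr1 was at least 4-fold higher and Acvr1b at least 4-fold lower in DP than in nasal neutrophils, where 8.42% and 3.62% of all tested genes were. Their median difference was -0.07, against 0.57 for all tested genes. On the log2(FPKM + 1) scale 2 of the 13, Il6st and Igf2r, were at least 4-fold higher in nasal than in blood neutrophils, where 13.1% of all genes were. On it 1, Tgfbr1, was that much higher in DP than in blood neutrophils, where 24.0% of all genes were. These counts are near or under the background.

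**Figure D4:**
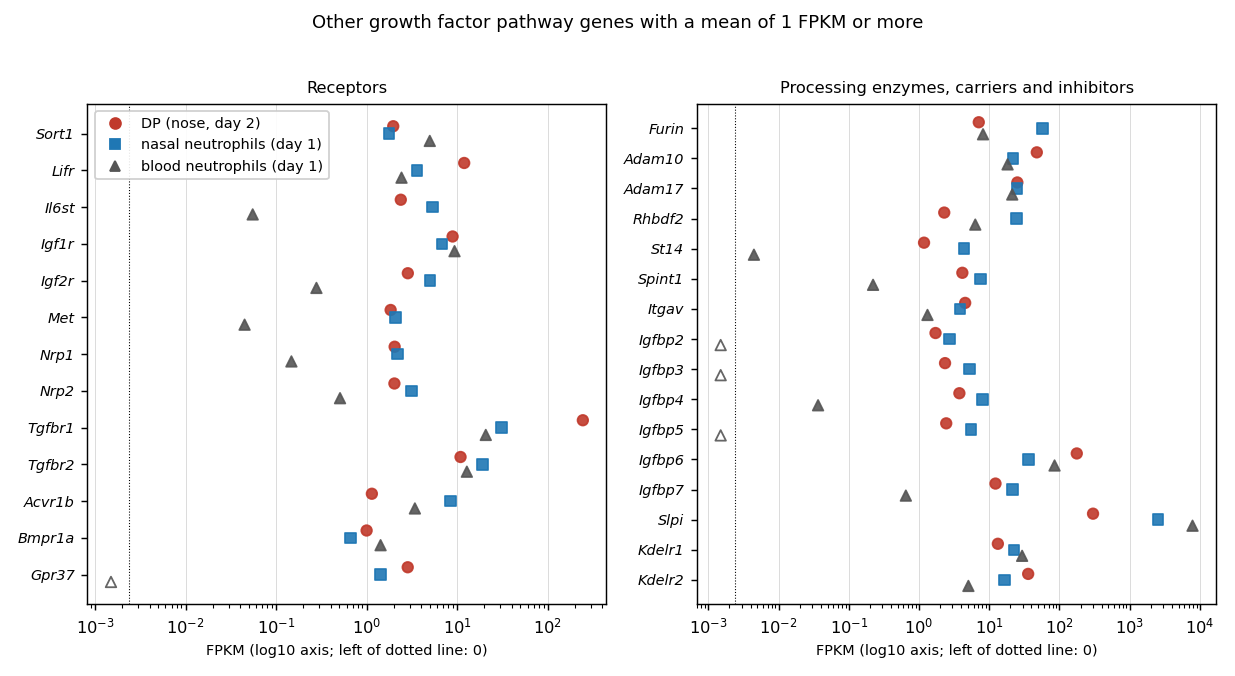
FPKM (log10 axis) of the receptor genes (left) and of the genes for processing enzymes, carriers and inhibitors (right) with a mean of 1 FPKM or more, 1 point per library, with open symbols left of the dotted line for genes listed at 0. Tgfbr1 stands at 244.5 FPKM in DP, far above the other receptors, and Furin, Rhbdf2 and Slpi lie lower in DP than in nasal neutrophils.

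Of 33 genes that process, carry or inhibit the factors, 10 were higher and 20 lower in DP than in nasal neutrophils, where 52.6% and 30.2% of all genes were. Furin, the protease that cleaves the TGF-beta and activin precursors among others, was at 7.11 FPKM in DP, 57.6 in the nasal and 8.17 in the blood neutrophils. Adam17, the main sheddase of EGF family ligands, was near equal at 25.2, 25.1 and 21.3 FPKM, while Rhbdf2, which encodes the iRhom2 protein that brings ADAM17 to the cell surface, was at 2.29, 24.4 and 6.34. Adam10, another sheddase, was at 47.6 FPKM in DP, 21.8 in the nasal and 18.3 in the blood neutrophils. Slpi, a protease inhibitor that protects progranulin from cleavage, was at 301 FPKM in DP, 2537 in the nasal and 7863 in the blood neutrophils, so DP was lowest, as for Grn. Igfbp6, a carrier that prefers IGF2, was at 177, 36.0 and 85.3 FPKM in DP and in the nasal and blood neutrophils, although Igf2 itself did not exceed 0.12 FPKM. Igfbp7 was at 12.3, 21.4 and 0.65 FPKM. The endoplasmic reticulum retrieval receptors that bind proteins such as MANF were at 13.3, 22.5 and 29.4 FPKM for Kdelr1 and 35.9, 16.5 and 5.06 for Kdelr2. Of 33 such genes 16 had a mean of 1 FPKM or more. Among these, Igfbp6 was at least 4-fold higher and Furin, Rhbdf2 and Slpi at least 4-fold lower in DP than in nasal neutrophils, against the 8.42% and 3.62% of all tested genes, and the median difference was -0.74, against 0.57 for all. At least 4-fold higher in nasal than in blood neutrophils were 7 of the 16, Furin and Igfbp7 among them, and none was lower, where 13.1% and 3.23% of all tested genes were. Against blood neutrophils DP was at least 4-fold higher on the log2(FPKM + 1) scale for 4, Igfbp7 and Kdelr2 among them, and lower for Slpi. Of all tested genes 24.0% and 3.57% were, so the higher count is near the background.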

How the data were processed

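RNA was measured by sequencing in 3 libraries, 1 per group, grouped by the sort gate, tissue and day of the labels. Per the labels, sorted cells were lysed in TRIzol LS and libraries made with a low-input kit. The authors deposited 1 value per gene symbol, read here as FPKM because Cufflinks reports it; the headers name no unit. Cufflinks 2.1.1, Bowtie2 2.1.0, TopHat2 2.0.8 and the mm9 build are listed in the submitters' processing notes; the annotation and any use of strand were not given in the sources used here. Because FPKM are not counts, no count model was run, and 1 library per group allows no test.

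Values were used as deposited, with those above 0 and below 1e-06 set to 0 (32, 20 and 43 in DP, nasal and blood neutrophils), a choice made after values were seen. Differences are of log2(FPKM + 1). Genes with a mean of 1 FPKM or more were compared (10719), and 4-fold is a difference of 2. Depth was estimated from the commonest low value of FPKM times transcript length among 2226 single-transcript genes, of which those over 1500 nt were used, within 6%. This step held 63, 76 and 50 genes in DP, nasal and blood neutrophils, and 18, 7 and 4 lay at 0.5 of it. Fragment numbers use the longest GENCODE M21 transcript and are approximate. Lengths were found for 98.7% of compared genes. Exon overlaps come from that GRCm38 annotation, of another build than mm9.

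Promoter sequences are RefSeq's, build GRCm38.p6, found for 29 of the 39 genes. Steps were checked on simulated data. Python 3.11.15 with pandas 2.3.3 was used.

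The genes and lists were chosen with earlier results of these data known. All 39 genes are named. Of the pathway lists, genes at 10 FPKM or more in a library, or 4-fold apart between DP and nasal neutrophils, are named. Of the marker lists for other cells, the 2 highest in a nasal library and defining genes at 0 are named. The red cell and platelet list is given by its sums alone. Osmr, Il6st, Igf2r, Prokr1, Prokr2, Zfp91, Rbm15b, Nudt6, Csf3r, S100a8, the C1q genes and the promoter choice were picked after their values were seen. So were Emr1, Elane, Itgax, Gap43, Gng13, Bpifa1 and Foxj1. Alternatives were other pseudocounts, filters, scalings, a length correction, the omission of genes at 0 and a 2-fold threshold.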

Additional observations from a re-analysis of the deposited data

How the results depend on the processing

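With 1 library per group no leave-out of a library was run, and no error or test was available. No paired analysis was possible because each group has a single library. Depth limits the low genes in nasal neutrophils, where 8 of the 39 were above 0 but rested on fewer than 10 fragments. In blood neutrophils 18 of the 39 were at 0, against 3 in DP and 3 in nasal neutrophils. Of all 23234 genes 8892 were at 0 in blood neutrophils, 4896 in DP and 5454 in nasal neutrophils. A level of 1 FPKM of a kilobase transcript stood for about 54.3 fragments in blood neutrophils and 54.8 in DP. The cause of the zeros in blood was not tested. Day and gate cannot be told apart from the DP group, and whether batches differ is not stated.

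Counts of the 15 compared factors past 4-fold, and their median log2 differences, moved as follows, and the causes were not tested. Medians that moved by less than 0.25 are left out. A pseudocount of 0.1 gave 2 higher in DP than in nasal neutrophils, 12 higher and 1 lower in nasal than in blood neutrophils (median 3.40), and 10 higher in DP than in blood neutrophils (median 3.95). A pseudocount of 5 gave 0 higher in DP than in nasal neutrophils, 3 higher in nasal than in blood neutrophils (median 0.72), and 1 higher and 0 lower in DP than in blood neutrophils (median 0.63). Without a filter, over all 39, the median was 0.94 for nasal over blood neutrophils and 0.50 for DP over blood neutrophils. With a mean of 5 FPKM or more (8 genes) the medians were -0.58 for DP over nasal, 2.74 for nasal over blood and 2.48 for DP over blood neutrophils. Of these 8 genes 5 were higher in nasal than in blood neutrophils and 4 in DP than in blood neutrophils. Scaling each library to an FPKM sum of 1000000 gave medians of 2.22 for nasal over blood and 2.24 for DP over blood neutrophils. With it 9 were higher in nasal than in blood and 8 in DP than in blood, where 1991 and 3209 of 10719 tested genes were. Centring gave 0 higher and 3 lower in DP than in nasal neutrophils (median -0.54). It gave 1 lower in nasal than in blood neutrophils (median 1.30), and a median of 0.80 for DP over blood neutrophils. Upper quartile scaling gave 0 higher and 3 lower in DP than in nasal neutrophils (median -0.36) and a median of 1.45 for DP over blood. The length correction gave 0 higher in DP than in nasal neutrophils and a median of 1.48 for DP over blood. Without genes at 0 the median for nasal over blood was 2.23. At 2-fold, 3 were higher and 4 lower in DP than in nasal neutrophils, 11 higher and 1 lower in nasal than in blood, and 11 higher and 1 lower in DP than in blood; of all tested genes these shares were 33.6% and 11.3%, 33.5% and 12.8%, and 48.6% and 9.49%.

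Over all tested genes, 4-fold calls in DP against nasal neutrophils were 903 higher and 388 lower, and 350 and 734 with upper quartile scaling. For nasal over blood they were 1408 and 346, against 968 and 609 centred, 2886 and 485 with a pseudocount of 0.1, and 470 and 215 with 5. For DP over blood they were 2577 and 383, against 1116 and 971 centred and 1594 and 788 with upper quartile scaling. They were 3847 and 473 with a pseudocount of 0.1 and 941 and 262 with 5. Of 15 single-gene differences past 4-fold, 9 fell under it in some alternative, each with a pseudocount of 5. None of those 15 changed direction, while 7 of all 45 differences changed sign under a scaling or length correction.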
